A study of Homo sapiens with 6 samples.

Results

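Glutamate carriers of the SLC1 family and the enzymes that make or use glutamate were followed in HCT116 cells with and without an shRNA against IGF2BP3. The 9 genes were chosen by name: the carriers SLC1A1, SLC1A3, SLC1A4 and SLC1A5, glutamate dehydrogenase GLUD1, the aspartate transaminases GOT1 and GOT2, the alanine transaminase GPT2 and the glutamine synthetase GLUL. They are 9 of the 62710 genes in the deposited tables, and all 9 were among the 16753 genes that passed the filter on low counts, with at least 160 counts in every library. HCT116 is an established human colon cancer cell line. The 6 libraries of total RNA came from 3 samples labelled sh-NC (negative control), which carry a scrambled shRNA, and 3 labelled sh-IGF2BP3. Both groups carried a lentiviral shRNA vector and had been selected with puromycin as stable lines, so the comparison rests on 1 shRNA sequence in 1 cell line, and effects of that sequence other than the loss of IGF2BP3 cannot be told apart from it. The labels do not say that the libraries came from separate cultures, so the p-values measure the spread between these libraries, which may be technical.

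Glutamate is taken up by sodium-coupled carriers of the SLC1 family, made from glutamine inside the cell, and used for transamination, for glutathione and for the tricarboxylic acid cycle. Glutamate also leaves the cell through system xc-, whose light chain SLC7A11 exchanges it for cystine, so uptake and synthesis of glutamate bear on how much cystine a cell can import. IGF2BP3, an RNA-binding protein that recognises m6A-modified transcripts, was the target of the knockdown.

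Each library held 16146718 to 23576469 counts on genes. IGF2BP3 stood at 90.3, 84.1 and 70.3 CPM (the normalised read count, scaled to a common library total by TMM) in sh-NC 1 to 3 and at 60.2, 52.3 and 55.8 in sh-IGF2BP3 1 to 3. The groups did not overlap, and the log2 fold change was −0.54 ± 0.18 (SE; adjusted p = 0.126 by edgeR's quasi-likelihood test with Benjamini-Hochberg adjustment). After removal of the trends with GC content and transcript length described further on, it was −0.26 (95% interval −0.65 to 0.14), and the groups overlapped under each of the 3 corrections tried. The epithelial markers EPCAM, KRT8, KRT18, KRT19 and CLDN4 were well expressed, while VIL1, CDX1, LGALS4 and CEACAM5 had 9, 1, 1 and 0 counts over all 6 libraries. In these bulk libraries, fewer cells expressing a gene and less of its RNA per cell cannot be told apart.

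The shRNA sequence is shown because a direct match in a glutamate gene would bear on every value given here.
sh-IGF2BP3: ggctcagggaagaatttat
sh-NC: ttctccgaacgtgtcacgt
The 19 bases of sh-IGF2BP3 were found in the GENCODE 29 transcripts of IGF2BP3 and of 1 processed pseudogene, and in no transcript of the 9 genes. A shorter site, GAATTTA, which pairs with bases 2 to 8 of the guide strand, occurred in the principal transcript of 1 of the 9 genes, SLC1A5, where it occurred 1 time. Between 14.8% and 30.2% of transcripts of similar length held the site, depending on the gene. A match is a description of the letters and not of binding.

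The stretch before the start of SLC1A3 and SLC1A5 is shown because these were the 2 members whose libraries did not overlap between groups. Each is the 250 bases upstream of the outermost RefSeq start (GRCh38.p14), 5′ to 3′ on the gene's strand, chr5:36596338-36596587 on the plus strand for SLC1A3 and chr19:46788595-46788844 on the minus strand for SLC1A5. Capitals mark the ATF4 core TGATGNAA, the sequence bound by the transcription factor of the amino acid response.
SLC1A3: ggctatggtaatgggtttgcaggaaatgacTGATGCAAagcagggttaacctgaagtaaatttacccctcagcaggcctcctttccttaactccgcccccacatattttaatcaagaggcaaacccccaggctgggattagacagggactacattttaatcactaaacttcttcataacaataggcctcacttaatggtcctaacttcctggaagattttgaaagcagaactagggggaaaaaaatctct
SLC1A5: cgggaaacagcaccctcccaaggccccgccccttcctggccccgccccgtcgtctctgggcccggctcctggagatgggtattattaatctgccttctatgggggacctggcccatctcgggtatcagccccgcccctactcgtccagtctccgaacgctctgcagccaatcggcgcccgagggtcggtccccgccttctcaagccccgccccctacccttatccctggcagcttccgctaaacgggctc
The SLC1A3 stretch was 43.2% G and C with 1 CpG, and the SLC1A5 stretch was 66.8% G and C with 19 CpG. Of these outermost stretches, the first is therefore AT-rich and the second CpG-rich. Windows of 300 bases at inner starts of SLC1A3 were 50% and 46.7% G and C with 9 and 10 CpG, and held no ATF4 core. Those of SLC1A5 were 66.7% and 60.7% G and C with 26 and 9 CpG. Which start these cells use was not tested.

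Windows from 250 bases before to 50 after each start were listed by RefSeq for 8 of the 9 genes, as 14 windows. The ATF4 core, searched on both strands, lay in 4 of the 14 windows and in 4 of the 8 genes, against 3.62% of all 35116 windows and 4.46% of all 27305 genes. The 4 matches are printed with 10 bases on either side and their distance from the start.
SLC1A3, −220: aggaaatgacTGATGCAAagcagggtta
SLC1A4, −7: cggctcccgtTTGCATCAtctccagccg
SLC1A5, −97: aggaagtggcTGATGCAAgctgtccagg
GOT1, −198: attgcattggTTGCATCAttctcggcag
They lie at chr5:36596358-36596385 (plus strand), chr2:64989382-64989409 (plus strand), chr19:46784894-46784921 (minus strand, before an inner start of SLC1A5) and chr10:99430805-99430832 (minus strand). The E-box CACGTG, searched on both strands, was found in 1 of the 8 genes, SLC1A5, and in 8.775% of all genes. Of the 4 genes with the ATF4 core, SLC1A3 and SLC1A4 had lower means in sh-IGF2BP3 and SLC1A5 a higher mean. The mean of GOT1 differed by 0.06 on the log2 scale. With the GC and length trends described further on removed, the log2 fold changes were −0.53 for SLC1A3 and −0.32 for SLC1A4. They were −0.01 for SLC1A5 and −0.07 for GOT1. A part of ATF4 in these levels was not tested.

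With the thresholds of the study, a fold change over 1.5 and an adjusted p under 0.05, edgeR called 0 of the 9 genes higher and 0 lower, beside 0% of all genes tested in either direction. At an unadjusted p under 0.05, 1 of the 9 was higher in sh-IGF2BP3, SLC1A5, beside 13.6% of all genes, and 2 were lower, SLC1A1 and SLC1A3, beside 8.54%. Groups that did not overlap were seen for 1 gene in the higher direction (SLC1A5, beside 13.2% of all genes) and for 1 in the lower direction (SLC1A3, beside 11.0%). DESeq2 called 1 of the 9 lower, SLC1A3, beside 1.05% of the genes it tested, and 0 higher, beside 4.29%. The median log2 fold change of the 9 was −0.03, and that of all genes tested −0.01. The 3 genes with an unadjusted p under 0.05 were all carriers, and the 5 enzymes gave none.

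**Figure D1:**
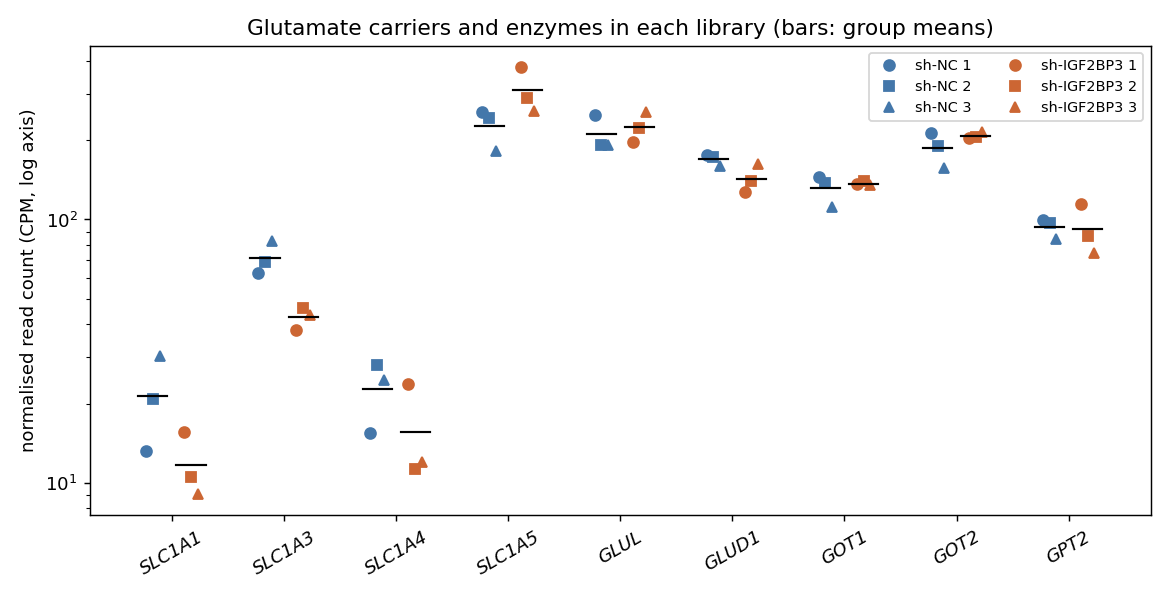
Level of each of the 9 genes in every library, in TMM-scaled CPM on a log axis, for the 3 sh-NC and the 3 sh-IGF2BP3 libraries, with bars at the group mean. SLC1A3 (38.0 to 46.2 CPM against 62.6 to 83.2) and SLC1A5 (257.7 to 378 CPM against 182 to 254.9) are the 2 genes whose groups do not overlap.

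SLC1A3 (ENSG00000079215, chromosome 5, 36596588 to 36688334, plus strand, GRCh38) encodes EAAT1, a high-affinity carrier of glutamate and aspartate best known from glia. It stood at 62.6, 69.0 and 83.2 CPM in sh-NC 1 to 3 and at 38.0, 46.2 and 43.2 CPM in sh-IGF2BP3 1 to 3, from 665 to 1670 counts per library. All 3 knockdown libraries lay below all 3 controls. The controls averaged 71.6 ± 10.5 CPM (SD, n = 3) against 42.5 ± 4.13 CPM (SD, n = 3) with the knockdown, 0.593 times the control. The log2 fold change was −0.75 ± 0.19 (SE; 95% interval −1.15 to −0.35), with an adjusted p of 0.103 by edgeR's quasi-likelihood test with Benjamini-Hochberg adjustment, and 154th of all genes tested by p. The exact permutation test of the means gave p = 0.1, the smallest it can give for 3 libraries against 3.

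The call on SLC1A3 depended on the tool and on 1 library. Its adjusted p was 0.020 with DESeq2, 0.0439 in edgeR with no filter on low counts and 0.00857 in edgeR without sh-NC 1, within a range of 0.00857 to 0.614 over the alternatives. The log2 fold change ran from −0.84 to −0.38 over the same alternatives and was negative in each. Settings that gave SLC1A3 an adjusted p under 0.05 also called many other genes. Over all genes the most were called without sh-NC 1, while the edgeR fit given first called 0 in either direction. A list of 8 glial and neuronal markers summed to 85.9 to 161 CPM in sh-NC and 82.5 to 91.6 CPM in sh-IGF2BP3, nearly all of it from the synaptic vesicle gene SYT1. Of its glial members, GFAP, AQP4, S100B and OLIG2 had 11, 7, 5 and 0 counts over all 6 libraries, and the astrocyte carrier SLC1A2 had 105. Of the 3 markers that passed the filter, 2 were lower at an unadjusted p under 0.05 in edgeR, beside 8.54% of all genes. These were the neuronal SYT1 (log2 fold change −0.52) and the low-count SLC1A2 (−1.85), both with overlapping groups. With the GC and length trends removed 2 of the markers were lower, beside 3.65% of all genes. The part of these markers in the level of SLC1A3 was not tested.

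SLC1A1 (ENSG00000106688, chromosome 9, 4490468 to 4587469, plus strand) encodes EAAT3, the carrier of glutamate and aspartate found widely outside the brain, which also takes up cysteine. Its levels were 13.2, 20.8 and 30.3 CPM in sh-NC 1 to 3 and 15.6, 10.5 and 9.09 CPM in sh-IGF2BP3 1 to 3. The groups overlapped, since sh-NC 1 lay below sh-IGF2BP3 1. The controls averaged 21.4 ± 8.56 CPM (SD, n = 3) against 11.7 ± 3.43 CPM (SD, n = 3) with the knockdown. The log2 fold change of −0.87 ± 0.30 (SE; 95% interval −1.50 to −0.23) was the lowest of the 9 and had an adjusted p of 0.132 in edgeR with Benjamini-Hochberg adjustment. Without sh-NC 1 it was −1.12 with an adjusted p of 0.00857, and with no filter on low counts −0.84 with 0.0495, within a range of 0.00857 to 0.743 over the alternatives. Without sh-NC 3 it was −0.56 (95% interval −1.16 to 0.04; adjusted p = 0.451 in edgeR). Many other genes were also called without sh-NC 1 and with no filter, while the edgeR fit given first called 0 of all genes.

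The third EAAT gene of the family that had counts, SLC1A2, encodes the main glutamate carrier of astrocytes. It had 9, 41 and 36 counts in sh-NC 1 to 3 and 10, 1 and 8 in sh-IGF2BP3 1 to 3, with overlapping groups. At 105 counts in all it was close to the filter, and its log2 fold change was −1.85 ± 0.62 (SE; adjusted p = 0.126 in edgeR). SLC1A6 and SLC1A7, the carriers of Purkinje cells and retina, had 0 counts in every library.

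SLC1A4 (ENSG00000115902, chromosome 2, 64988477 to 65023865, plus strand) encodes ASCT1, an exchanger of alanine, serine, cysteine and threonine. Levels were 15.5, 27.9 and 24.7 CPM in sh-NC 1 to 3 and 23.7, 11.2 and 11.98 CPM in sh-IGF2BP3 1 to 3. The first library of either group stood apart from the other two of its group, and the groups overlapped. Its log2 fold change was −0.54 ± 0.30 (SE; 95% interval −1.17 to 0.10; adjusted p = 0.302 in edgeR). It was −0.96 without sh-IGF2BP3 1 and −0.34 without sh-IGF2BP3 2.

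SLC1A5 (ENSG00000105281, chromosome 19, 46774883 to 46788594, minus strand) encodes ASCT2, the exchanger through which many tumour cells take up glutamine. It had 254.9, 242.0 and 182.0 CPM in sh-NC 1 to 3 and 378, 290.3 and 257.7 CPM in sh-IGF2BP3 1 to 3. The groups did not overlap, but the highest control (sh-NC 1) and the lowest knockdown library (sh-IGF2BP3 3) were nearly level. The controls averaged 226 ± 38.9 CPM (SD, n = 3) against 309 ± 62.3 CPM (SD, n = 3) with the knockdown. The log2 fold change was 0.45 ± 0.21 (SE; 95% interval 0.01 to 0.89), with an adjusted p of 0.220 in edgeR with Benjamini-Hochberg adjustment, and the exact permutation test gave p = 0.1. It was 0.28 without sh-IGF2BP3 1 and 0.29 without sh-NC 3.

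The 2 carriers that did not overlap between groups differed in opposite directions, so their ratio within a library was also compared. SLC1A5 had 4.07, 3.51 and 2.19 times the CPM of SLC1A3 in sh-NC 1 to 3 and 9.95, 6.29 and 5.96 times in sh-IGF2BP3 1 to 3. The ratio was higher in all 3 knockdown libraries. With SLC1A5 higher and SLC1A3 lower in each of them, this separation was fixed by the choice of the pair and tests nothing further. Since the pair was taken after both genes had been seen, the ratio is a description.

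GLUL (ENSG00000135821, chromosome 1, 182378098 to 182392206, minus strand) encodes glutamine synthetase, which joins ammonia to glutamate. It stood at 249.5, 192.1 and 190.9 CPM in sh-NC 1 to 3 and at 196, 223 and 254.9 CPM in sh-IGF2BP3 1 to 3. The ranges of the 2 groups almost coincided. Its log2 fold change was 0.09 (95% interval −0.32 to 0.50; adjusted p = 0.808 in edgeR), which allows a change of up to 0.50 upwards.

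GLUD1 (ENSG00000148672, chromosome 10, 87050202 to 87094843, minus strand) encodes the mitochondrial glutamate dehydrogenase, which turns glutamate into 2-oxoglutarate and ammonia. It had 176, 173 and 159.6 CPM in sh-NC 1 to 3 and 127, 139.6 and 162 CPM in sh-IGF2BP3 1 to 3. Of the knockdown libraries, sh-IGF2BP3 3 lay among the controls and the other two below them. For GLUD1 the log2 fold change was −0.25 ± 0.18 (SE; 95% interval −0.63 to 0.14; adjusted p = 0.430 in edgeR). Its near copies took few reads, with at most 45 counts in any library for GLUD1P3 and 9 for GLUD2, but how reads fitting several copies were counted is not stated. SHLD2, which overlaps the first 683 bases of GLUD1 on the other strand, had a log2 fold change of −0.29.

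GOT1 (ENSG00000120053, chromosome 10, 99396870 to 99430624, minus strand) and GOT2 (ENSG00000125166, chromosome 16, 58707131 to 58734342, minus strand) encode the cytosolic and the mitochondrial aspartate transaminase, both of which pass nitrogen between glutamate and aspartate in the malate-aspartate shuttle. GOT1 stood at 145, 137 and 112 CPM in sh-NC 1 to 3 and at 136, 139.6 and 135 CPM in sh-IGF2BP3 1 to 3. GOT2 stood at 214, 190.4 and 157 CPM in sh-NC 1 to 3 and at 203, 205 and 214 CPM in sh-IGF2BP3 1 to 3. For both genes the knockdown libraries lay close together inside or near the upper end of a wider control range. The log2 fold changes were 0.06 for GOT1 (95% interval −0.32 to 0.44; adjusted p = 0.870) and 0.15 for GOT2 (95% interval −0.24 to 0.54; adjusted p = 0.658), both from edgeR.

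GPT2 (ENSG00000166123, chromosome 16, 46884362 to 46931289, plus strand) encodes the mitochondrial alanine transaminase. It had 99.3, 96.9 and 84.0 CPM in sh-NC 1 to 3 and 114, 86.4 and 74.7 CPM in sh-IGF2BP3 1 to 3. The knockdown libraries spread over a wider range than the controls and lay on both sides of them. For GPT2 the log2 fold change was −0.03 (95% interval −0.44 to 0.39; adjusted p = 0.948 in edgeR). The cytosolic enzyme GPT, which was not among the 9 genes, had 10 to 28 counts per library.

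**Figure D2:**
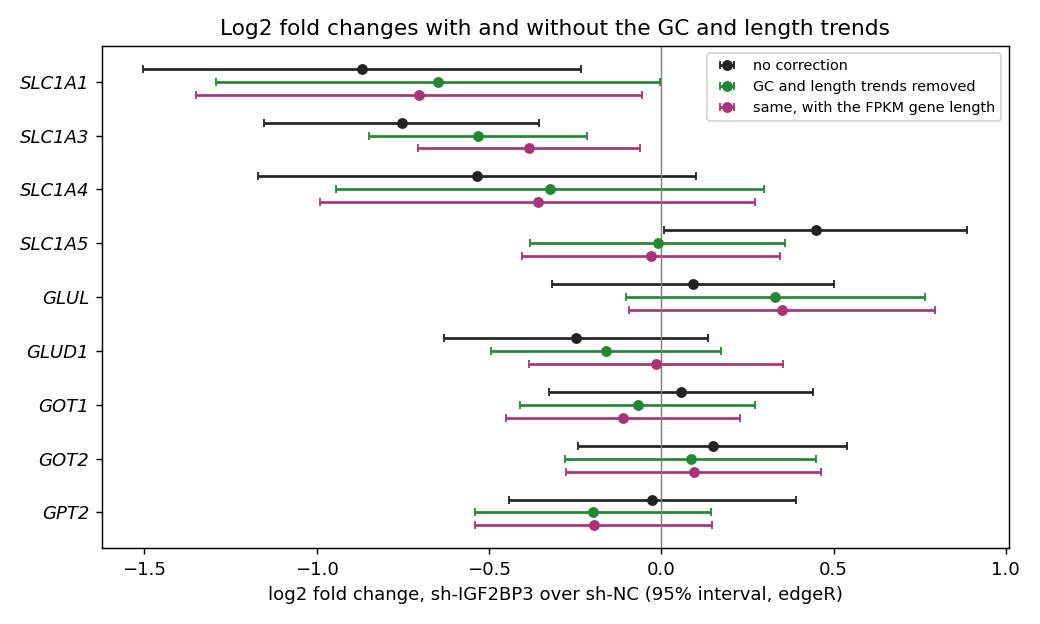
Log2 fold change of each of the 9 genes, sh-IGF2BP3 against sh-NC, with 95% intervals, from edgeR without a correction, after removal of each library's trends with GC content and transcript length, and after the same removal with the FPKM length. SLC1A5 goes from 0.45 to −0.01 and −0.03, and SLC1A3 from −0.75 to −0.53 and −0.38.

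GLUL fixes ammonia and GLUD1 releases it from glutamate, and the ratio of the pair was compared within each library. GLUL had 1.42, 1.11 and 1.196 times the CPM of GLUD1 in sh-NC 1 to 3 and 1.54, 1.59 and 1.58 times in sh-IGF2BP3 1 to 3. The knockdown ratios lay close together and above all 3 controls. The exact permutation test gave p = 0.1, the smallest possible, and 0.167 after Benjamini-Hochberg adjustment over the 5 ratios computed. The ratio of GLUD1 to GOT2 also did not overlap, at 0.824, 0.910 and 1.01 in sh-NC 1 to 3 and 0.626, 0.682 and 0.756 in sh-IGF2BP3 1 to 3. The ratios of GOT2 to GOT1 and of SLC1A5 to SLC1A4 overlapped between groups. Of the 5 ratios computed 3 did not overlap, including that of SLC1A5 to SLC1A3. The share of such ratios over other gene pairs was not computed. GLUL, GLUD1 and GOT2 each overlapped between groups by themselves, so these ratios are a description too.

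The libraries differed in how the level of a gene went with the GC content of its transcript, and the 9 genes span much of that range. All genes were split into eighths by GC content. The median log2 fold change was −0.34 in the lowest eighth (median GC content 37.5%) and 0.56 in the highest (63.3%). Libraries of one group were not alike in this. Between these eighths, the median deviation from a gene's mean log2 CPM went from −0.38 to 0.58 in sh-IGF2BP3 1. It went from −0.08 to 0.30 in sh-IGF2BP3 2 and from −0.02 to −0.04 in sh-IGF2BP3 3. In sh-NC 1 to 3 it went from 0.05 to −0.11, 0.23 to −0.36 and 0.24 to −0.32. Transcript GC content was 43.8% for SLC1A3, 44.2% for SLC1A1, 44.3% for GLUL, 46.4% for GLUD1 and 46.5% for SLC1A4. It was 50.4% for GOT2, 52.8% for GOT1, 55.3% for GPT2 and 61.3% for SLC1A5. These values are for the longest transcript, on which the 3 carriers with lower means lay below the 48.7% median of all genes and SLC1A5 was the most GC-rich of the 9. The principal transcript of SLC1A4 was 52.6% GC, above that median, and that of GLUL 49.0%. Set among the genes of its own eighth, the log2 fold change of SLC1A1 was at percentile 5.02, that of SLC1A3 at 8.23, that of SLC1A4 at 13.4, that of SLC1A5 at 37.3 and that of GLUL at 79.9.

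**Figure D3:**
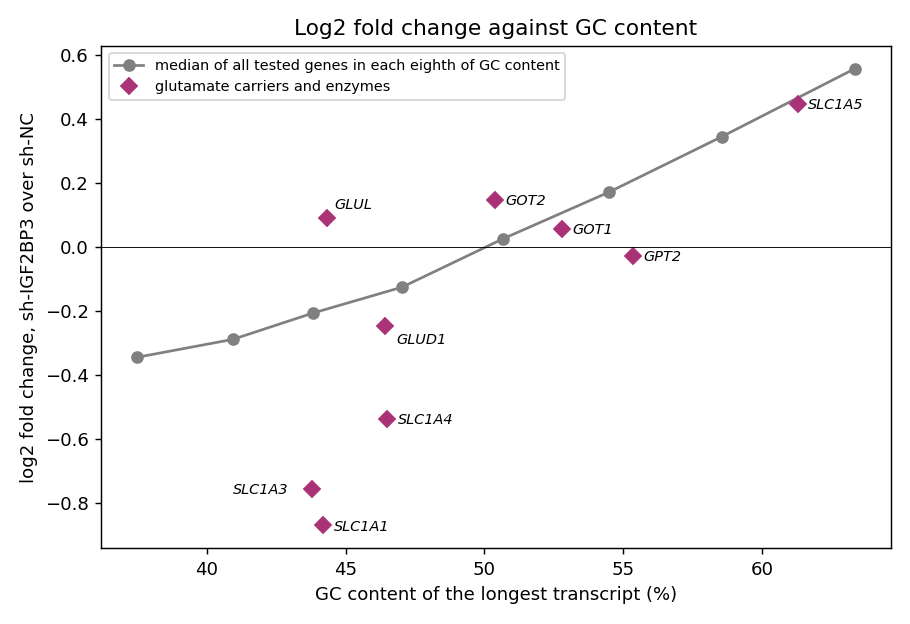
Log2 fold change against the GC content of the longest transcript, with the median of each eighth of all genes tested (line) and the 9 glutamate genes as named points. The medians climb from −0.34 to 0.56, with SLC1A1 and SLC1A3 below the line, SLC1A5 close to it and GLUL above it.

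Each library's trend with GC content and transcript length was then removed inside the edgeR fit. At an unadjusted p under 0.05, 2 of the 9 genes were lower, SLC1A1 and SLC1A3, beside 3.65% of all genes, and 0 were higher, beside 6.77%. Groups of corrected values that did not overlap were seen for 1 gene in the lower direction, SLC1A3, beside 6.66% of all genes, and for 0 in the higher direction, beside 8.3%. The median log2 fold change of the 9 genes was −0.16, and that of all genes 0.01. What set the trends was not tested.

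With the trends removed, the log2 fold change of SLC1A3 was −0.53 ± 0.14 (SE; 95% interval −0.85 to −0.21; adjusted p = 0.405 in edgeR). Its corrected log2 CPM was 5.98, 5.95 and 6.20 in sh-NC 1 to 3 and 5.44, 5.66 and 5.44 in sh-IGF2BP3 1 to 3, still without overlap. SLC1A1 stood at −0.65 (95% interval −1.29 to −0.0028) and SLC1A4 at −0.32 (95% interval −0.94 to 0.30). SLC1A5 stood at −0.01 (95% interval −0.38 to 0.36) and its groups overlapped, whereas on the uncorrected scale they did not. GLUL stood at 0.33 (95% interval −0.10 to 0.77), higher than before the correction.

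The length given to a gene bears on this correction, because the length behind the deposited FPKM values is not that of 1 transcript. It was 21.2 kb for SLC1A3 against 4.17 kb for the principal transcript, 5.09 times as long, 14.3 kb for GLUD1 against 3.04 kb (4.70 times) and 12.6 kb for GLUL against 4.72 kb (2.68 times). For the other 6 genes the ratio lay between 0.829 for GOT1 and 1.60 for GPT2. With the FPKM length in the correction, the log2 fold change of SLC1A3 was −0.38 (95% interval −0.71 to −0.06) and that of GLUD1 −0.01, and the SLC1A3 groups again did not overlap. SLC1A4 was at −0.36 and GLUL at 0.35 with the FPKM length. A further fit took both GC content and length from the principal transcript, and SLC1A3 was at −0.53. In that fit SLC1A4 was at −0.58 (95% interval −1.18 to 0.02) in place of −0.32, and GLUL at 0.17 in place of 0.33. That fit changed GC content and length together, and their parts were not tested.

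The order of the levels was read per kb of length, and it depended on the same choice. In FPKM, the means in sh-NC were 69.2 for SLC1A5, 55.4 for GOT1, 50.9 for GOT2, 17.02 for GLUL, 15.02 for GPT2, 12.2 for GLUD1, 5.63 for SLC1A1, 3.48 for SLC1A3 and 3.38 for SLC1A4. GOT1 and GOT2 overlapped in their ranges over libraries, as did GLUL and GPT2, and SLC1A3 overlapped with SLC1A1 and SLC1A4. In CPM per kb of the principal transcript, the order in sh-NC was SLC1A5 (78.5), GOT2 (76.0), GLUD1 (55.8), GOT1 (45.0), GLUL (44.7), GPT2 (23.5), SLC1A3 (17.2), SLC1A1 (5.76) and SLC1A4 (4.97).

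On the transcript scale SLC1A3 was the second SLC1 carrier by level and did not overlap SLC1A1, while in FPKM the ranges of these 2 genes overlapped. In sh-IGF2BP3 the order in CPM per kb was SLC1A5 (107), GOT2 (84.2), GLUL (47.6), GLUD1 (47.0), GOT1 (46.8), GPT2 (23.0), SLC1A3 (10.2), SLC1A4 (3.43) and SLC1A1 (3.15). SLC1A5 overlapped GOT2 in sh-NC and lay above it in sh-IGF2BP3. GLUD1 lay above GOT1 in sh-NC, and in sh-IGF2BP3 their ranges overlapped.

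**Figure D4:**
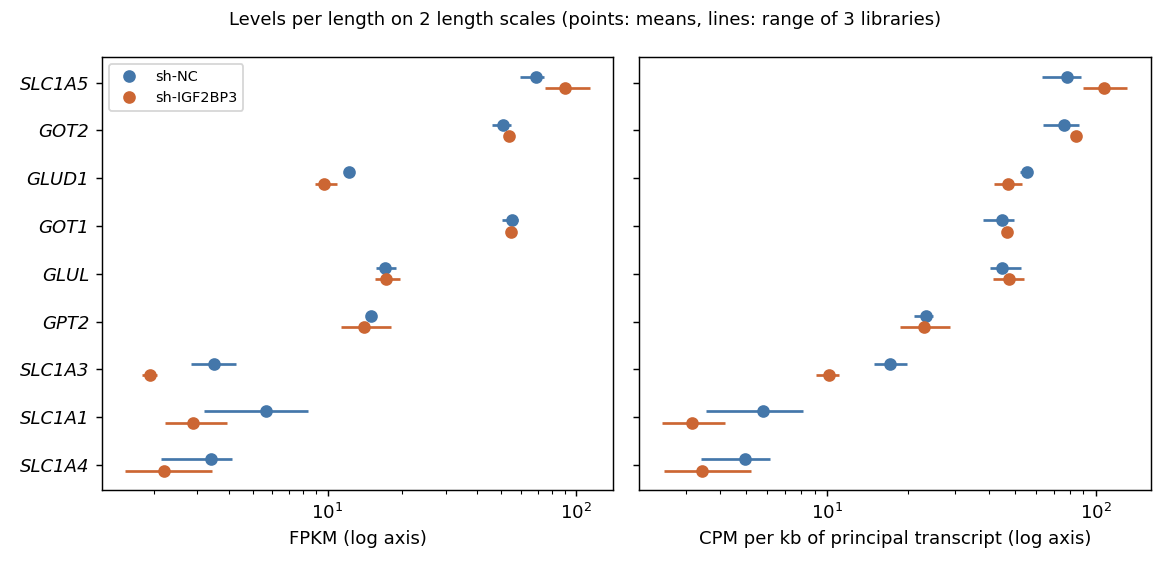
Levels of the 9 genes per kb on a log axis, in FPKM and in CPM per kb of the principal transcript, with points at the mean of either group and lines over the range of its 3 libraries. SLC1A5 is highest on either scale, at a sh-NC mean of 69.2 FPKM and 78.5 CPM per kb, and SLC1A3 stands at 3.48 FPKM and 17.2 CPM per kb.

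SLC7A11, the exchanger that sends glutamate out for cystine, stood at 187, 236 and 189 CPM in sh-NC 1 to 3 and at 104, 98.6 and 104 CPM in sh-IGF2BP3 1 to 3. The groups were well apart, and the log2 fold change was −0.996 (adjusted p = 0.103 in edgeR; 0.000747 with DESeq2, within a range of 0.000747 to 0.686 over the alternatives). By comparison, the 2 carriers that bring glutamate in with high affinity and had enough counts, SLC1A1 and SLC1A3, were at −0.87 and −0.75. After the correction for trends, SLC1A1 was at −0.65, SLC1A3 at −0.53 and SLC7A11 at −0.51, so the order of the 3 genes was not kept. The differences between these genes were not tested.

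The wider glutamate network was read from 8 lists of 91 genes, of which 69 were tested. With edgeR 0 of the 69 passed the thresholds, and DESeq2 called 1 of the 62 it tested, BCAT2, as higher. At an unadjusted p under 0.05, 15 of the 69 were higher (21.7%, beside 13.6% of all genes) and 4 were lower (5.80%, beside 8.54%). With the GC and length trends removed, 3 were higher and 3 lower (4.35% each, beside 6.77% and 3.65%). The 15 higher genes had a median transcript GC content of 61.1% and the 4 lower genes 42.4%, against 48.7% over all genes.

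**Figure D5:**
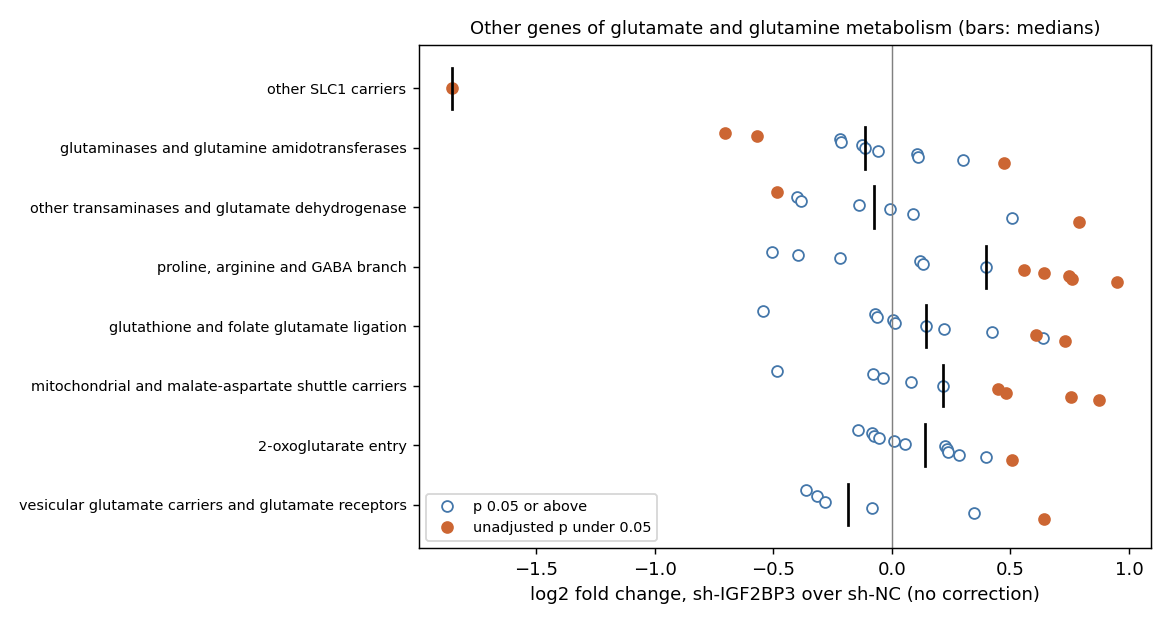
Log2 fold changes of the tested genes of each glutamate list, sh-IGF2BP3 against sh-NC, with the list median and with genes at an unadjusted p under 0.05 set apart by colour. The list of proline, arginine and GABA genes has the highest median (0.40) among lists with more than 1 tested gene. Of its 11 tested genes, 5 are higher at an unadjusted p under 0.05, beside 13.6% of all genes.

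The enzymes that release glutamate from glutamine had 1 of 11 tested genes higher and 2 lower at an unadjusted p under 0.05. The shares over all genes were 13.6% and 8.54%. PFAS, which uses glutamine in purine synthesis, was at 92.4 CPM in sh-NC and 128 CPM in sh-IGF2BP3 (log2 fold change 0.47; 0.24 with trends removed). Among the lower genes was the asparagine synthetase ASNS, with means of 18.01 and 11.1 CPM (−0.70; −0.65 with trends removed). Its groups overlapped, and it was named after its values were seen.

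Among the other transaminases, 1 of 8 tested genes was higher, beside 13.6% of all genes, and 1 lower, beside 8.54%. BCAT2, the mitochondrial branched-chain transaminase, had means of 26.7 and 46.1 CPM (log2 fold change 0.79; 0.33 with trends removed). PSAT1, which passes the amino group of glutamate into serine synthesis, stood at 344 CPM in sh-NC and 246 CPM in sh-IGF2BP3 (−0.48; −0.32 with trends removed), with groups that did not overlap. The change of either gene came closer to 0 once the trends were removed.

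The proline, arginine and GABA branch had 5 of 11 tested genes higher, beside 13.6% of all genes, and 0 lower, beside 8.54%. With trends removed 1 was higher and 1 lower, beside 6.77% and 3.65% of all genes, and the list median went from 0.40 to 0.13. NAGS, which makes N-acetylglutamate, had means of 6.12 and 11.8 CPM (0.95; 0.42 with trends removed). The proline-forming reductase PYCR3 had means of 14.8 and 24.8 CPM and a log2 fold change of 0.75, and 0.21 with trends removed. Both genes had groups that did not overlap before the correction and overlapped after it.

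In the glutathione and folate list 2 of 11 tested genes were higher, beside 13.6% of all genes, and 1 with trends removed, beside 6.77%. GGCT, which splits gamma-glutamyl dipeptides, stood at 10.8 CPM in sh-NC and 17.9 CPM in sh-IGF2BP3 (0.73; 0.85 with trends removed). It was AT-rich, at 43.1% GC, and unlike most of the 15 genes its difference did not become smaller. FPGS, which adds glutamate to folates, was at 0.61, and at 0.05 with trends removed.

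Of the 9 shuttle genes 4 were higher at an unadjusted p under 0.05 in edgeR, beside 13.6% of all genes, and 0 lower, beside 8.54%. With trends removed 0 were higher, beside 6.77%, and 0 lower, beside 3.65%. Of the 4, SLC25A22, the mitochondrial glutamate carrier, MDH2, the mitochondrial malate dehydrogenase, and SLC25A11, the 2-oxoglutarate carrier, had groups that did not overlap, at log2 fold changes of 0.76, 0.48 and 0.45. With trends removed they stood at 0.24, 0.33 and 0.04. Of the 12 genes for entry of 2-oxoglutarate into the tricarboxylic acid cycle, 1 was higher at an unadjusted p under 0.05 and 0 lower. The shares over all genes were 13.6% and 8.54%, and the list median was 0.14.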

How the data were processed

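Total RNA from 6 HCT116 samples (3 sh-NC, 3 sh-IGF2BP3) had been sequenced from TruSeq libraries. The authors deposited raw counts per gene, and FPKM values, for 62710 genes on GRCh38. The deposited FPKM are the counts divided by the library total and by 1 fixed length per gene. The submitters' processing notes name CASAVA. The aligner, the counting tool and the use of strand are not given in the sources used here.

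Counts were tested in R 4.3.3 with edgeR 4.0.16 (filterByExpr, TMM, glmQLFit and glmQLFTest, Benjamini-Hochberg adjustment over 16753 genes, no covariate). The fit was also run on simulated counts with a fixed dispersion and no GC or length trend, so that run does not cover the trends in these data. Groups followed the labels. CPM were TMM-scaled. Single values were compared by exact two-sided permutation tests over the 6 libraries. Genes were called at a fold change over 1.5 with an adjusted p under 0.05. The FPKM of genes averaging 1 or more were analysed with limma 3.58.1 after adding 1 or 0.1 and taking log2, and DESeq2 1.42.0 was an alternative. GC and length trends were splines with 5 degrees of freedom per library, from the longest GENCODE 29 transcript. GC content was known for 96.9% of tested genes. Sequences came from RefSeq (GRCh38.p14) and the study's oligo list.

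The genes, the pathway lists and the alternatives were chosen with earlier results of these data known, and the correction with the FPKM length was added after the data were seen. Named beside the 9 genes were IGF2BP3, SLC7A11, genes overlapping or copying a member, and up to 3 genes per list with an unadjusted p under 0.05 and groups that did not overlap. Other named genes were chosen after their values were seen, and a few genes under these rules are not reported here. Counts of one group differed by more than counting noise (chi-square per degree of freedom 19.8 to 61.5), so the 3 libraries of a group were kept as 3.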

Additional observations from a re-analysis of the deposited data

How the results depend on the processing

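Of 162 comparisons of a member's log2 fold change with an alternative, 144 kept direction and side of the thresholds, 5 passed them and 13 reversed. The cause was not tested. Reversed were SLC1A5 (−0.011 with GC and length trends removed, −0.031 with the FPKM length), GOT1 (−0.068 with trends removed, −0.060 with the replicate block added, −0.023 with the principal transcript, −0.111 with the FPKM length, −0.0096 and −0.0097 in limma with pseudocounts of 1 and 0.1, and −0.069 to 0.14 without single libraries, lowest without sh-NC 3), GPT2 (−0.211 to 0.089 without single libraries, with 0.022, 0.089 and 0.024 without sh-IGF2BP3 2, sh-IGF2BP3 3 and sh-NC 1) and GLUL (−0.028 to 0.234 without single libraries, lowest without sh-IGF2BP3 3). Members called lower were 1 with DESeq2, beside 137 of all genes, and 2 with no filter on low counts, beside 150. Over single libraries left out they were 0 to 2, with 2 without sh-NC 1, beside 985 of all genes. Members higher at an unadjusted p under 0.05, 1 in the report, were 0 with each correction for trends, RLE or upper-quartile scaling, at least 10 counts in every library and limma, and 0 to 1 without single libraries. Members lower, 2 in the report, were 1 with trends and block or the principal transcript, and 1 to 3 without single libraries. Pathway genes higher, 15 in the report, were 3 with trends removed, 2 with the block, the principal transcript or the FPKM length, and 6 to 17 without single libraries. Pathway genes lower, 4 in the report, were 2 with trends and block, and 1 to 7 without single libraries. Over all genes, calls were 562 higher and 137 lower with DESeq2, 687 and 150 with no filter, 1 higher with RLE or at least 10 counts, 1 lower in limma with log2(FPKM + 1), and 0 to 1739 higher and 0 to 985 lower without single libraries, both highest without sh-NC 1 and next, at 214 and 14, without sh-IGF2BP3 3. Replicate numbers are shared by the groups, but same-numbered libraries did not deviate together (correlations −0.28, −0.19 and −0.04). With the replicate number as a block, 0 genes were called and the members at an unadjusted p under 0.05 were again 1 higher and 2 lower. Few libraries limit all tests: the exact permutation test of 3 against 3 cannot give a p under 0.1.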

Other observations

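Genes for release and sensing of glutamate were mostly silent. Of 20 vesicular carriers and receptors, 6 passed the filter on low counts. Of the 6, 1 was higher at an unadjusted p under 0.05 in edgeR, beside 13.6% of all genes. This was the NMDA receptor subunit GRIN1, with means of 7.05 CPM in sh-NC and 10.99 CPM in sh-IGF2BP3 and overlapping groups (log2 fold change 0.64, and 0.08 with trends removed). The subunits GRIN2B and GRIN2D stood higher, at 36.4 and 32.4 CPM in sh-NC and 29.97 and 41.2 CPM in sh-IGF2BP3. The vesicular carrier SLC17A7 had 31 to 114 counts per library, while SLC17A6 and the AMPA receptor subunit GRIA1 had 0 counts in all 6.

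Marker lists of other cell types summed to 0.785 to 1.23 CPM in sh-NC and 0.457 to 1.08 CPM in sh-IGF2BP3 for leukocytes, and to 2.43 to 4.70 and 1.77 to 4.06 CPM for endothelium. The fibroblast list summed to 28.5 to 48.3 and 30.1 to 59.8 CPM, nearly all from COL1A1, with COL1A2, LUM and PDGFRA at 0 counts. The epithelial list summed to 2308 to 4040 and 3397 to 4509 CPM.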
